A study of Rattus norvegicus with 24 samples.

Results

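The cholesterol genes described here were 8 of the 13458 gene symbols in the deposited expression table, chosen by symbol, and each was represented by a single row. They comprised 6 enzymes of the synthesis pathway, listed in the order in which they act as Hmgcs1, Idi1, Fdps, Fdft1, Sqle and Lss, and 2 regulators, Srebf2 and Insig1. None of the 8 encodes a lipoprotein receptor, so cholesterol uptake was followed through a separate list of receptors and trafficking genes. Both tibialis anterior (TA) muscles, the main ankle dorsiflexors, of 12 aged male rats (23 ± 1 months) gave 1 mRNA library each, with 3 animals in each of 4 groups. In 9 animals the left common peroneal nerve was silenced with tetrodotoxin (TTX), a sodium channel blocker that stops nerve conduction and so muscle activation. Left limbs were sampled after 6 to 7 d of TTX (atrophy, n = 3), after TTX and 9 d without it (recovery, n = 3), or after TTX, recovery and a second TTX period of 5 to 6 d (repeated atrophy, n = 3). The right limbs of these 9 animals, given no TTX but taken from animals that carried the pump, served as control (n = 9). The sham group of 3 animals held 1 animal for each of the 3 time points and underwent the surgery with no TTX (sham left and sham right, n = 3 each), so no time point had a replicated sham. Animals are numbered within their group.

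Cells make cholesterol from acetyl-CoA. HMG-CoA synthase (Hmgcs1) leads into the mevalonate pathway, isopentenyl diphosphate isomerase (Idi1) and farnesyl diphosphate synthase (Fdps) build farnesyl diphosphate, and this intermediate is shared with protein prenylation, dolichol and ubiquinone synthesis. Squalene synthase (Fdft1) is the first step that commits it to sterols, after which squalene epoxidase (Sqle) and lanosterol synthase (Lss) form the first sterol ring system. Most of these genes are classical targets of SREBP-2, the product of Srebf2, which is held in the endoplasmic reticulum by INSIG-1 when sterols are plentiful and released when they are scarce.

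Values were CPM, read counts per gene scaled to the same total in every limb, and fold changes (FC) were tested on log2(CPM + 1) with limma over all 14031 rows with a value above 0 in at least 3 limbs. To be called, a gene needed an FC of 1.2 or more in either direction together with an adjusted p (Benjamini-Hochberg, over those rows) no higher than 0.05. The most frequent value above 0 in each limb, taken as the value of 1 read, implied a depth of 18.9 to 30.9 M counted reads per limb. Group medians were 20.6 (recovery) to 29.4 M (atrophy). The 7 skeletal muscle markers summed to between 148000 and 203000 CPM in control limbs (median 186000), 68300 and 157000 CPM in atrophy limbs (median 88400), 159000 and 176000 CPM in recovery limbs (median 166000), and 90800 and 123000 CPM in repeated atrophy limbs (median 104000). The repeated atrophy limbs were thus below all control limbs and the atrophy limbs lower with an overlap, while sham limbs lay between 120000 and 184000 CPM. Only Myh7, the slow myosin, was called among the 7, falling after atrophy (log2 FC -1.62, adjusted p = 0.00718) and repeated atrophy (log2 FC -2.34, adjusted p = 0.000139), where 2.33% and 6.24% of all rows fell (22.6% and 34.3% called). The fast myosins Myh4 and Myh1, the creatine kinase Ckm and the actin Acta1 had log2 FCs of -1.39, -0.73, -1.11 and -0.87 after atrophy and of -0.65, -1.09, -0.87 and -0.79 in repeated atrophy limbs (adjusted p between 0.072 and 0.432). The fast myosin Myh2 had log2 FCs of 0.99 after atrophy, 1.10 after recovery and 0.02 in repeated atrophy limbs (adjusted p = 0.104, 0.122 and 0.982), and the troponin Tnnt3 had -0.06, 0.25 and 0.33 (adjusted p = 0.901, 0.572 and 0.354). The part of these markers in the results was not tested. On the deposited scale the median of all rows shifted from control by 0.22 (log2) with atrophy, 0.02 with recovery and 0.20 with repeated atrophy. Trimmed-mean rescaling of the limbs, which trims 30% of log ratios and 5% of levels, brought these shifts to 0.00, 0.01 and -0.01, and rescaled values are therefore given beside the deposited ones. In bulk muscle, fewer cells of a type and less RNA per cell cannot be told apart. Left and right limbs came from the same animals, and for the 8 genes the value of a fit with the animal as block is given where it changed a call. In that fit 0 of 14031 rows were called after atrophy, so that no atrophy call of a pathway or marker gene named here held in it either.

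RefSeq promoter windows on GRCr8, a later build than the rn7 of the expression table (250 bases before to 50 after the start), were found for 6 of the 8 genes. Sqle and Fdft1 had no entry. Searching both strands, the NF-Y box CCAAT was in 6 of 6 of these windows, in 37.7% of all 27457 windows and in 37.1% of the 10553 windows whose symbol was in the expression table. The GC box GGGCGG was in 5 of 6 windows, Idi1 being the exception, and in 34.9% of all windows and 59.4% of those in the expression table. A core of the sterol regulatory element, TCACNCCAC, was in 0 of 6 windows and 1.13% of all windows, which says only that these letters are not there. The 200 bases before the start are shown for the 4 genes with an entry that rose after repeated atrophy and, for contrast, for Hmgcs1, which did not pass the threshold in any comparison. They are written 5′ to 3′ along the gene with CCAAT, or its reverse complement, in capitals.
Idi1, chr17:66547525-66547724, minus strand: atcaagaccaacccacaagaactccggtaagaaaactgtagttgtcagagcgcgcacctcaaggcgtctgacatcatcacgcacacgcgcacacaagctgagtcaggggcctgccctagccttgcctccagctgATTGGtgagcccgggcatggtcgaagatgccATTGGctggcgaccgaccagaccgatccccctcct
Fdps, chr2:176804817-176805016, minus strand: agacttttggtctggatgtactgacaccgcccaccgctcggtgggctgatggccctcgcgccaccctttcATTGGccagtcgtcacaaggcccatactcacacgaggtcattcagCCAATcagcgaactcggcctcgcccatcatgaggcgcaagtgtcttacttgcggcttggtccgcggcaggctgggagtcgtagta
Lss, chr20:12118231-12118430, minus strand: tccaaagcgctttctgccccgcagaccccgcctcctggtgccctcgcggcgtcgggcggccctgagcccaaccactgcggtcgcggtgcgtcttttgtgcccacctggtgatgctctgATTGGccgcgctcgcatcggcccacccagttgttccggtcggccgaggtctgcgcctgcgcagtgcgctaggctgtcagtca
Srebf2, chr7:115543107-115543306, plus strand: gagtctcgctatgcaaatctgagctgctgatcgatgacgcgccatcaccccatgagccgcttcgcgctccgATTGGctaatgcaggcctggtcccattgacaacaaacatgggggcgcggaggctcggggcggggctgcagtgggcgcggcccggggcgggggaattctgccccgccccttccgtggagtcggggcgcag
Hmgcs1, chr2:53382104-53382303, plus strand: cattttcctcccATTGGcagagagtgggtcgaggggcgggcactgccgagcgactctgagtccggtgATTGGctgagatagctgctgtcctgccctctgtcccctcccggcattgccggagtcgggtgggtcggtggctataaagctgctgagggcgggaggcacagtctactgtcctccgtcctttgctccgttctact
Idi1, Fdps and Hmgcs1 each held 2 boxes in these stretches, and Lss and Srebf2 held 1 each. The boxes of Idi1 began 66 and 35 bases before the start and lay closer to it than those of Fdps, which began 130 and 85 bases before it. Genes that rose and the gene that did not were thus alike in holding the box.

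Levels were compared between genes per kb of the deposited length. In control limbs Fdps was highest at 39.5 ± 7.01 CPM per kb (SD, n = 9), followed by Fdft1 at 29.1 ± 4.32 CPM per kb. Insig1 (11.9 ± 5.56), Srebf2 (8.49 ± 2.08) and Hmgcs1 (8.44 ± 1.74 CPM per kb) came next and did not differ beyond their spread. Idi1 stood at 3.42 ± 1.36 CPM per kb, Lss at 1.41 ± 0.516 CPM per kb, and Sqle was lowest at 0.291 ± 0.158 CPM per kb. After repeated atrophy the order among the enzymes had changed, since Idi1 at 15 ± 2.78 CPM per kb (n = 3) stood above Hmgcs1 at 9.89 ± 2.86 CPM per kb. Idi1 was then near the level of Fdft1, which was 15.2 ± 2.36 CPM per kb.

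**Figure D1:**
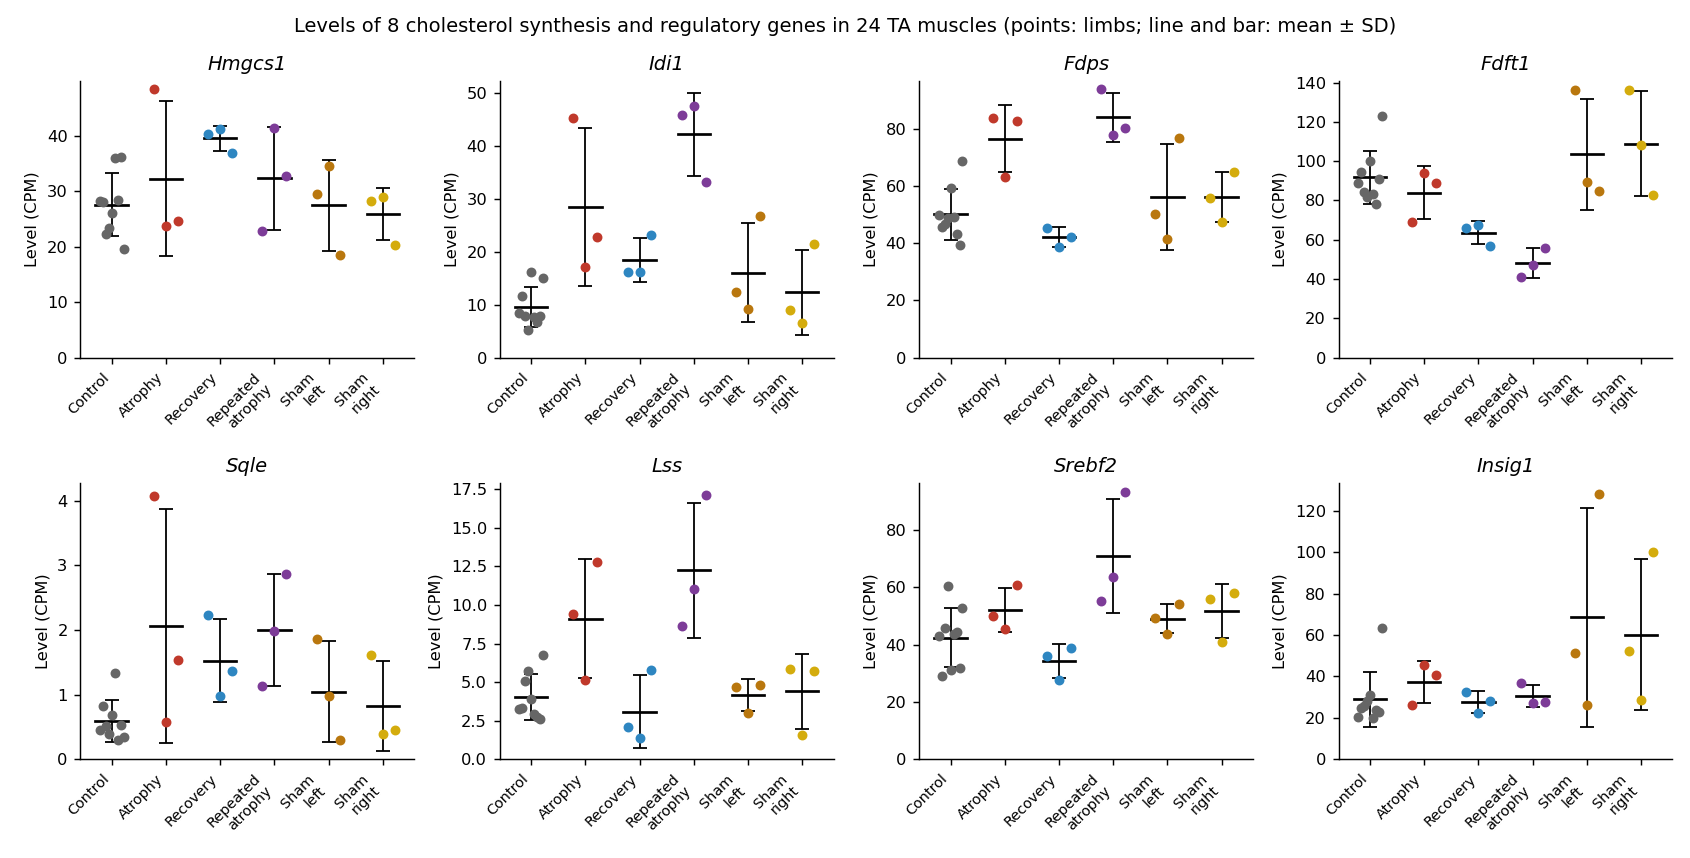
Level of each of the 8 genes in CPM (vertical axes, from 0) in each of 24 TA muscles, grouped on the horizontal axis as control (n = 9) and 5 groups of 3 limbs, with the mean as a line and the SD as a bar. Idi1 lies above every control limb in all 9 left limbs of TTX animals, and Fdft1 lies below every control limb in the recovery and repeated atrophy limbs. Both limbs of sham animal 3 are also above every control limb for Idi1, at 26.7 and 21.5 CPM.

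Against control, Idi1 showed the widest change of the 8 genes on log2(CPM + 1). By the ratio of mean CPM to control, Sqle was wider after atrophy (3.45 against 2.95 for Idi1) and recovery (2.55 against 1.92). After repeated atrophy Idi1 was wider by that ratio (4.38 against 3.33 for Sqle). Idi1 (rn7 chr17:61629592-61637358, minus strand) stood at 5.23 CPM at the lowest, 7.79 at the median and 16.1 at the highest of 9 control limbs. It was 45.3, 17.1 and 22.8 CPM in the 3 atrophy limbs, 16.1, 16.1 and 23.2 CPM in the 3 recovery limbs, and 45.8, 47.5 and 33.2 CPM in the 3 repeated atrophy limbs. All 9 TTX limbs were above the highest control limb, though recovery animals 1 and 2 were above it by less than the rounding of these values. In sham animals 1, 2 and 3, which had no TTX, Idi1 was 12.3, 9.21 and 26.7 CPM in the left and 8.91, 6.49 and 21.5 CPM in the right limb, so that both limbs of sham animal 3 were also above all control limbs and above 1 of 3 atrophy and 2 of 3 recovery limbs. Both periods of disuse passed the threshold for Idi1, with a log2 FC vs. control of 1.43 in atrophy (SE 0.30, adjusted p = 0.00725) and of 2.08 in repeated atrophy limbs (SE 0.30, adjusted p = 0.000132). After recovery Idi1 had a log2 FC of 0.93 (SE 0.30, adjusted p = 0.0619) on the deposited scale, which missed the threshold, and of 0.92 (SE 0.27, adjusted p = 0.0321) after rescaling, which passed it, as it did without atrophy animal 2 or 3 (adjusted p = 0.0228 and 0.0491). Rescaled values of Idi1 were 1.08 after atrophy (adjusted p = 0.0213) and 1.72 after repeated atrophy (adjusted p = 0.000215). With the animal as block, Idi1 kept its call after repeated atrophy (log2 FC 2.27, adjusted p = 0.00351) and lost it after atrophy (log2 FC 0.98, adjusted p = 0.197).

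Fdps, at the branch between sterols and isoprenoids, was called higher in both periods of disuse on the deposited scale and not between them. Fdps (rn7 chr2:174497402-174507032, minus strand) ranged from 39.4 CPM through a median of 48.9 to 68.9 CPM in control limbs. Its levels were 84.0, 63.2 and 82.9 CPM after atrophy, 45.5, 38.6 and 42.4 CPM after recovery, and 94.1, 78.1 and 80.3 CPM after repeated atrophy. The repeated atrophy limbs lay above all control limbs, though not after rescaling, the atrophy limbs overlapped them through atrophy animal 2, and the recovery limbs lay within or just under the control range. The log2 FC of Fdps was 0.61 after atrophy (SE 0.15, adjusted p = 0.0108), -0.23 after recovery (SE 0.15, adjusted p = 0.347), and was 0.75 in repeated atrophy limbs (SE 0.15, adjusted p = 0.00109). After rescaling, Fdps stayed past the threshold after repeated atrophy (log2 FC 0.37, adjusted p = 0.0301) and not after atrophy (log2 FC 0.25, adjusted p = 0.198). In the fit with the animal as block, Fdps had a log2 FC of 0.36 after atrophy (adjusted p = 0.254) and 0.82 after repeated atrophy (adjusted p = 0.00664). The right limbs of atrophy animals 1, 2 and 3 were the highest control limbs for Fdps, at 50.1, 59.6 and 68.9 CPM. Left minus right was 0.73, 0.08 and 0.26 (log2) in these animals.

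Fdft1, the next enzyme, moved the other way. Fdft1 (rn7 chr15:37412143-37440199, minus strand) had a lowest, median and highest level of 78.4, 89.0 and 123 CPM in control limbs. It stood at 68.8, 94.2 and 89.0 CPM after atrophy, 66.2, 67.5 and 57.0 CPM after recovery, and 41.2, 47.1 and 56.0 CPM after repeated atrophy. Neither the recovery nor the repeated atrophy limbs overlapped the control limbs, and the repeated atrophy limbs also lay below all recovery limbs. The log2 FC of Fdft1 vs. control was -0.13 after atrophy (SE 0.14, adjusted p = 0.566), -0.51 after recovery (SE 0.14, adjusted p = 0.0341), and was -0.92 in repeated atrophy limbs (SE 0.14, adjusted p = 0.000203). Rescaling moved Fdft1 past the threshold after atrophy as well (log2 FC -0.49, adjusted p = 0.0446) and gave -0.54 after recovery (adjusted p = 0.0248) and -1.30 after repeated atrophy (adjusted p = 3e-05). With the animal as block the fall of Fdft1 remained past the threshold after repeated atrophy (log2 FC -0.85, adjusted p = 0.00648) and not after recovery (log2 FC -0.40, adjusted p = 0.248). The recovery call of Fdft1 was also lost when any of the 3 recovery animals was left out (adjusted p between 0.0739 and 0.153) or repeated atrophy animal 2 was (adjusted p = 0.0588).

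The opposed courses of Fdps and Fdft1 can be read within each limb, where the scaling of the limb cancels. The ratio of Fdps to Fdft1 in CPM per kb ran from 1.08 to 1.48 in control limbs, with a mean of 1.36 ± 0.136 (SD, n = 9). It ran from 1.67 to 3.03 after atrophy (mean 2.34 ± 0.683, n = 3), from 1.42 to 1.85 after recovery (mean 1.66 ± 0.218, n = 3) and from 3.57 to 5.68 after repeated atrophy (mean 4.46 ± 1.1, n = 3). Atrophy and repeated atrophy limbs did not overlap control limbs, repeated atrophy limbs did not overlap atrophy limbs, and recovery limbs overlapped control limbs at their lower end. In sham limbs the ratio ran from 0.917 to 2.26 on the left and from 1.02 to 1.96 on the right, a range that reached into that of the atrophy limbs. The ratio of Idi1 to Fdft1 was 0.0717 to 0.18 in control limbs and 0.666 to 1.25 after repeated atrophy. Values of the ratio for Lss to Fdft1 were 0.0318 to 0.0775 in control limbs and 0.232 to 0.339 after repeated atrophy, again with no overlap. These ratios were chosen after the levels were seen and were not tested.

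**Figure D2:**
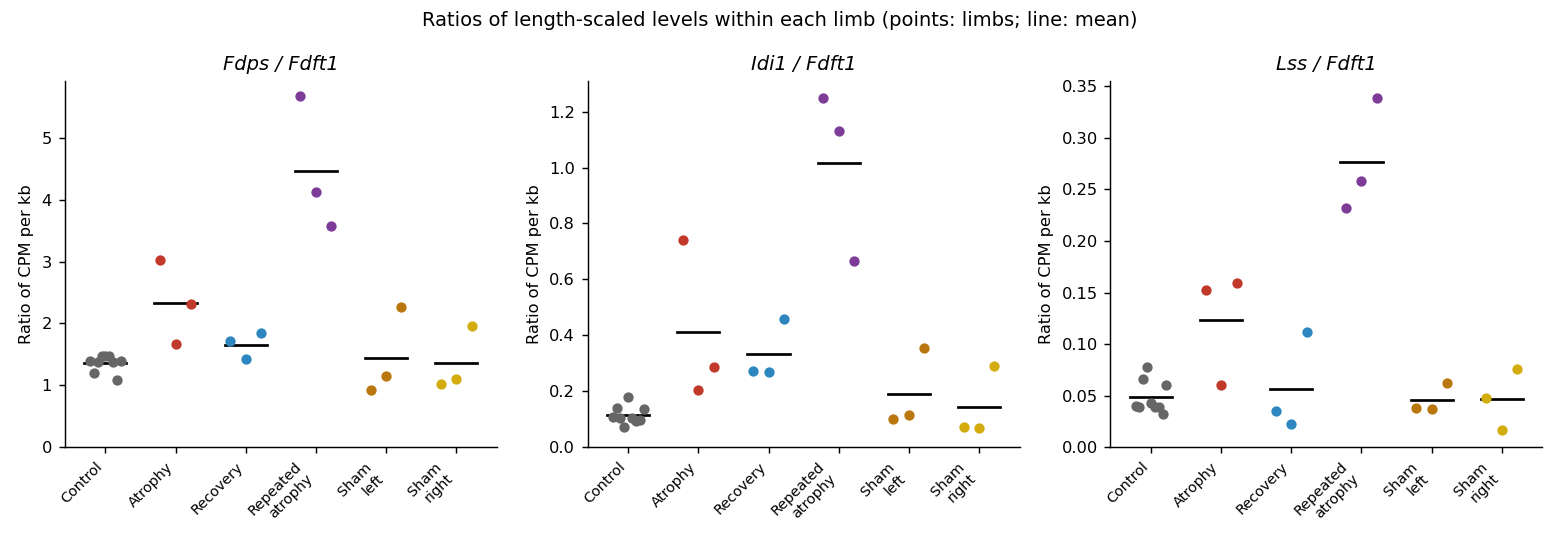
Ratios of Fdps, Idi1 and Lss to Fdft1 in CPM per kb (vertical axes, from 0) in each of 24 limbs, grouped as control, atrophy, recovery, repeated atrophy, sham left and sham right, with the mean as a line. All 3 repeated atrophy limbs lie above every other limb in each panel except that 1 atrophy limb reaches 0.74 for Idi1.

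Sqle and Lss, the first enzymes after squalene, were the lowest genes and rose in the disused limbs. Lss (rn7 chr20:12092776-12118740, minus strand) was 2.62 CPM at the lowest, 3.31 at the median and 6.74 at the highest control limb. It was 9.41, 5.11 and 12.8 CPM after atrophy, 2.08, 1.39 and 5.79 CPM after recovery, and 8.62, 11 and 17.1 CPM after repeated atrophy. The repeated atrophy limbs did not overlap control limbs and the other groups did. For Lss the log2 FC was 0.98 after atrophy (SE 0.32, adjusted p = 0.0376), -0.40 after recovery (adjusted p = 0.473), and was 1.40 in repeated atrophy limbs (SE 0.32, adjusted p = 0.00321). The rescaled log2 FC of Lss was 0.67 after atrophy (adjusted p = 0.129), no longer a call, and 1.06 after repeated atrophy (adjusted p = 0.00857), while the block left 0.81 (adjusted p = 0.217) and 1.19 (adjusted p = 0.0206). The atrophy call of Lss was also lost without atrophy animal 3, recovery animal 1 or 2, or repeated atrophy animal 2 (adjusted p between 0.0528 and 0.139).

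Sqle (rn7 chr7:90868742-90883617, plus strand) was listed between 0.295 and 1.34 CPM in control limbs, with a median of 0.519 CPM. Its levels were 4.08, 0.576 and 1.53 CPM after atrophy, 2.23, 0.982 and 1.36 CPM after recovery, and 1.13, 1.99 and 2.86 CPM after repeated atrophy. Every TTX group overlapped the control limbs, and the low level of Sqle makes its fold sensitive to the pseudocount of 1. The log2 FC of Sqle was 0.79 after atrophy (SE 0.27, adjusted p = 0.0404), 0.65 after recovery (SE 0.27, adjusted p = 0.134), and was 0.89 in repeated atrophy limbs (SE 0.27, adjusted p = 0.0155). Neither call of Sqle held after rescaling (adjusted p = 0.135 after atrophy and 0.0518 after repeated atrophy) or with the animal as block (adjusted p = 0.204 and 0.0609). Without repeated atrophy animal 2 or 3 the second call was lost (adjusted p = 0.0842 and 0.142), and the first was lost without these, atrophy animal 3, or recovery animal 2 or 3 (adjusted p between 0.0554 and 0.103).

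Hmgcs1, the entry enzyme, did not pass the threshold in any comparison. Hmgcs1 (rn7 chr2:51649596-51667101, plus strand) ranged from 19.6 through a median of 28.1 to 36.2 CPM in control limbs. It was 48.4, 23.8 and 24.7 CPM after atrophy, 40.4, 41.3 and 37.0 CPM after recovery, and 22.9, 41.5 and 32.7 CPM after repeated atrophy. The recovery limbs lay just above all control limbs, though not after rescaling, and the disused limbs were spread through and beyond the control range. The log2 FC of Hmgcs1 was 0.17 (SE 0.22, adjusted p = 0.634), 0.53 (SE 0.22, adjusted p = 0.14) and 0.21 (SE 0.22, adjusted p = 0.515) after atrophy, recovery and repeated atrophy.

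Of the regulators, Srebf2 rose after repeated atrophy. Srebf2 (rn7 chr7:113663202-113720851, plus strand) had a lowest, median and highest control level of 29.2, 43.7 and 60.4 CPM. It stood at 50.1, 45.6 and 60.8 CPM after atrophy, 36.2, 27.8 and 39.0 CPM after recovery, and 55.4, 63.8 and 93.3 CPM after repeated atrophy. Each TTX group overlapped control limbs, and the repeated atrophy limbs lay above all recovery limbs. The log2 FC of Srebf2 was 0.32 after atrophy (SE 0.21, adjusted p = 0.284), -0.28 after recovery (SE 0.21, adjusted p = 0.432), and was 0.73 in repeated atrophy limbs (SE 0.21, adjusted p = 0.0116). The call was lost after rescaling (log2 FC 0.35, adjusted p = 0.179) and without repeated atrophy animal 3 (log2 FC 0.58, adjusted p = 0.0562), and was kept with the animal as block (log2 FC 0.66, adjusted p = 0.0259).

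Insig1 (rn7 chr4:7315711-7323926, minus strand) ranged from 19.8 through a median of 24.9 to 63.6 CPM in control limbs. It was 26.0, 45.4 and 40.5 CPM after atrophy, 32.5, 22.2 and 28.3 CPM after recovery, and 36.8, 27.3 and 27.5 CPM after repeated atrophy, all within the control range. The top of that range was a single limb, the right limb of atrophy animal 3, and the next control limb was at 31.2 CPM. Atrophy limbs at 45.4 and 40.5 CPM, a recovery limb at 32.5 CPM and a repeated atrophy limb at 36.8 CPM were above 31.2 CPM. The log2 FC of Insig1 was 0.41 (adjusted p = 0.278), 0.01 (adjusted p = 0.988) and 0.15 (adjusted p = 0.714), each with an SE of 0.26. Sham animals 1, 2 and 3 had 51.4, 26.1 and 128 CPM of Insig1 in the left and 52.1, 28.7 and 100 CPM in the right limb, and both limbs of sham animal 3 were above all other limbs. Left and right limbs of a sham animal were thus close and the animals far apart. The sum of 6 adipocyte markers, most of it Fabp4, was 233, 115 and 321 CPM in the left and 183, 114 and 285 CPM in the right limbs of the same animals against 79.7 to 173 CPM in control limbs. The 4 endothelial markers summed to 354, 176 and 214 CPM on the left and 426, 153 and 276 CPM on the right in these animals. In control limbs the endothelial sum was 143 to 199 CPM. The part of either sum in the Insig1 level was not tested.

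Counted together, 4 of the 8 genes rose and 0 fell after atrophy, where 20.3% of all rows rose and 2.33% fell (22.6% called). The median log2 FC was 0.51 over the 8 genes and 0.22 over all rows. After recovery 0 rose and 1 fell, against 4.4% and 3.33% of all rows (7.73% called), with a median of -0.11 against 0.02. After repeated atrophy 5 rose and 1 fell, against 28.1% and 6.24% of all rows (34.3% called), with a median of 0.74 against 0.20. The counts depended on scale: rescaled, 1 rose and 1 fell after atrophy, where 4.73% of rows rose and 4.95% fell (9.68% called), 1 rose and 1 fell after recovery, where 6.02% rose and 6.04% fell, and 3 rose and 1 fell after repeated atrophy, where 13.1% rose and 12.1% fell (25.2% called). The rescaled medians of the 8 genes were 0.15, -0.14 and 0.36. Among all calls the split of higher to lower went from 2844 and 327 to 663 and 695 after atrophy and from 3936 and 876 to 1845 and 1697 after repeated atrophy. With the animal as block, 0 of 8 genes and 0% of all rows were called after atrophy (2678 rows had an unadjusted p below 0.05), 0 of 8 and 0.0641% after recovery, and 5 of 8 and 27.1% after repeated atrophy.

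The atrophy calls were lost without atrophy animal 1, when none of the 8 genes and 1 of 13993 rows was called in atrophy vs. control, against 4 of 8 and 4841 of 13998 rows without atrophy animal 2. The log2 FC without atrophy animal 1 was 1.03 for Idi1 (adjusted p = 0.141), 0.89 for Lss (adjusted p = 0.228), 0.54 for Fdps (adjusted p = 0.149) and 0.33 for Sqle (adjusted p = 0.491), so that Lss and Fdps stayed near their values with all 3 animals and Sqle did not. The median of all rows was then 0.17. In atrophy animal 2 the limbs were nearly alike, with Idi1 at 17.1 CPM on the left and 16.1 CPM on the right, and a median left minus right difference of 0.08 (log2) over the 8 genes. That median was 0.74 in atrophy animal 1, 0.29 in atrophy animal 3, and between 0.66 and 0.80 in the 3 repeated atrophy animals.

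Limbs were also compared within animals. Idi1 differed between left and right by 1.88, 2.46 and 2.46 (log2) in repeated atrophy animals 1, 2 and 3, by 2.29, 0.08 and 0.57 in atrophy animals and by 0.97, 1.17 and 1.47 in recovery animals. It was also higher on the left in 3 of 3 sham animals, by 0.43, 0.45 and 0.30. Fdft1 was lower on the left in 9 of 9 TTX animals, with a mean left minus right difference of -0.31 ± 0.20 in atrophy, -0.40 ± 0.24 in recovery and -0.85 ± 0.32 in repeated atrophy animals (SD, n = 3 each). Fdps was higher on the left in 3 of 3 repeated atrophy animals by 0.82 ± 0.17. For recovery animals Sqle was higher on the left in 3 of 3 by 0.57 ± 0.09, and Lss in 1 of 3, which is recovery animal 3 at 0.91 against -0.34 and -0.65 in the other animals.

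**Figure D3:**
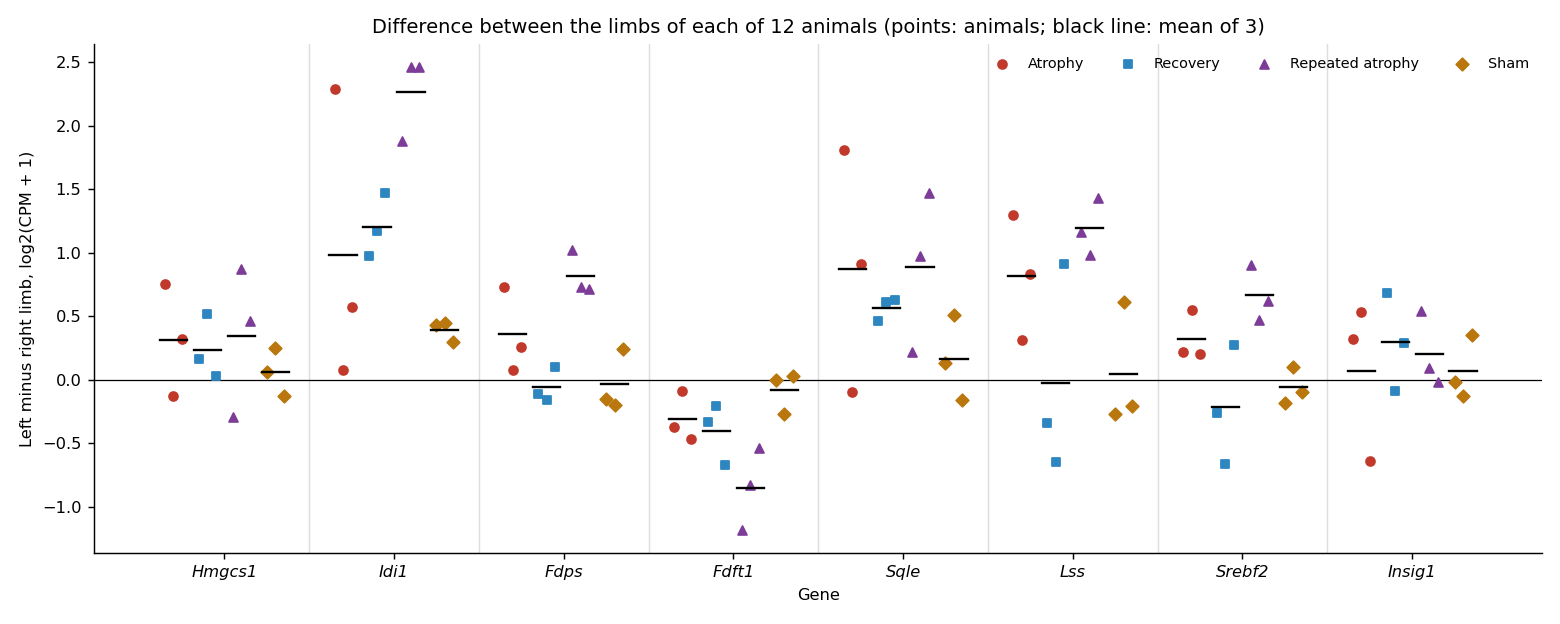
Left minus right limb on log2(CPM + 1) (vertical axis) for each of the 8 genes (horizontal axis) in 12 animals, colored by group, with a black line at the mean of 3 animals. Idi1 is above 0 in all 12 animals, by 1.88 to 2.46 in repeated atrophy animals and 0.30 to 0.45 in sham animals, and Fdft1 is below 0 in all 9 TTX animals.

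TTX cessation and the second TTX period were also compared directly. From atrophy to recovery, 0 of 8 genes rose and 2 fell, where 3.34% of all rows rose and 14.5% fell. Fdps fell by 0.84 (log2, SE 0.18, adjusted p = 0.00898) and Lss fell by 1.38 (SE 0.40, adjusted p = 0.0251), while Idi1 had a difference of -0.50 (SE 0.37, adjusted p = 0.356). From recovery to repeated atrophy, 4 genes rose and 0 fell, where 21% of rows rose and 6.29% fell. Lss rose by 1.80 (SE 0.40, adjusted p = 0.00435), Idi1 by 1.15 (SE 0.37, adjusted p = 0.0269), Srebf2 by 1.00 (SE 0.25, adjusted p = 0.00862) and Fdps by 0.98 (SE 0.18, adjusted p = 0.00186). After rescaling, 0 rose and 2 fell from atrophy to recovery (5.48% of rows rose and 5.2% fell, 10.7% called), and 3 rose and 1 fell from recovery to repeated atrophy (21.7% called). Idi1 lost its call there (log2 FC 0.80, adjusted p = 0.0852) and Fdft1 gained one in the other direction (log2 FC -0.75, adjusted p = 0.00821). Srebf2 kept its call there after trimmed-mean rescaling (log2 FC 0.65, adjusted p = 0.0455) and lost it after rescaling by median of ratios (log2 FC 0.64, adjusted p = 0.0506). None of these calls held with the animal as block, where 0.0143% and 0.0855% of all rows were called. Without recovery animal 2, the calls of Fdps and Lss from atrophy to recovery (adjusted p = 0.0523 and 0.137) and of Idi1 and Srebf2 from recovery to repeated atrophy (adjusted p = 0.0962 and 0.0592) were lost. The call of Lss from atrophy to recovery was also lost without atrophy animal 1 or 3 or recovery animal 1 (adjusted p between 0.0849 and 0.108), and that of Idi1 without recovery animal 1 or repeated atrophy animal 1 or 2 (adjusted p between 0.0694 and 0.101).

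The first and second periods of disuse did not differ at the threshold for any of the 8 genes, in a comparison where 0.0356% of rows were called (0.0143% higher and 0.0214% lower) and 884 rows had an unadjusted p below 0.05. The widest difference was in Fdft1, with a log2 FC of -0.79 from atrophy to repeated atrophy (SE 0.17, unadjusted p = 0.000228, adjusted p = 0.117). The 3 repeated atrophy limbs lay below all 3 atrophy limbs for Fdft1. Idi1 had a difference of 0.65 (SE 0.37, adjusted p = 0.891) and Hmgcs1 of 0.04 (SE 0.27, adjusted p = 1). With 3 limbs a group, a difference of the size seen in Idi1 was not resolved.

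Sham surgery gave no call. Sham left vs. control had 0 of 8 genes and 0% of 13822 rows past the threshold with limma, with 1904 rows at an unadjusted p below 0.05. Without sham animal 2, 118 rows were called and still 0 of the 8 genes. The widest log2 FC was that of Insig1, 1.01 (SE 0.39, adjusted p = 0.326), followed by Idi1 with 0.63 (SE 0.34, adjusted p = 0.404). Sham left vs. sham right, with the animal as block, also had 0 of 8 genes and 0% of 13483 rows past the threshold, with 576 rows at an unadjusted p below 0.05. There Idi1 had the widest difference, 0.39 (SE 0.14, adjusted p = 0.936). With limma and each of the tried rescalings, filters and pseudocounts, sham comparisons kept 0 calls among the 8 genes.

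The rest of the synthesis pathway was read from a list of 21 genes that holds the 6 enzymes above. Of the 21, 11 rose and 0 fell with atrophy (20.3% and 2.33% of all rows did), 0 rose and 2 fell with recovery (4.4% and 3.33%), and 11 rose and 1 fell with repeated atrophy (28.1% and 6.24%). Without atrophy animal 1, 0 were called after atrophy. The list median was 0.58, 0.23 and 0.71 (log2), against 0.22, 0.02 and 0.20 over all rows. Rescaled, 3 rose and 1 fell after atrophy (4.73% and 4.95% of all rows), 1 rose and 2 fell after recovery (6.02% and 6.04%), and 8 rose and 3 fell after repeated atrophy (13.1% and 12.1%). With the animal as block no gene of the list was called after atrophy or recovery, and 8 rose and 1 fell after repeated atrophy (21.5% and 5.66% of all rows).

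Mvk, Pmvk and Mvd, the kinases and the decarboxylase that act on mevalonate before Idi1, had log2 FCs of -0.39, -0.31 and -0.28 after repeated atrophy (adjusted p = 0.218, 0.0873 and 0.411). Rescaled, Mvk (log2 FC -0.73, adjusted p = 0.0229) and Pmvk (log2 FC -0.67, adjusted p = 0.0019) fell.

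Past lanosterol, the demethylase Cyp51 rose by a log2 FC of 0.88 after atrophy (adjusted p = 0.0103) and 1.03 after repeated atrophy (adjusted p = 0.0014). The sterol oxidase Msmo1 rose by 0.96 (adjusted p = 0.00852) and 1.32 (adjusted p = 0.000279). Cyp51 and Msmo1 kept their calls after rescaling in both comparisons (adjusted p between 0.00063 and 0.0364), and with the animal as block after repeated atrophy (adjusted p = 0.019 and 0.0112). Hsd17b7, Ebp and Sc5d, later enzymes of the sterol ring, rose by 0.63, 0.64 and 0.84 in atrophy limbs and by 0.92, 0.71 and 0.68 in repeated atrophy limbs. Acat2, which condenses acetyl-CoA at the head of the pathway, rose by 0.58 and 1.06. Rescaled, none of the atrophy calls of Acat2, Hsd17b7, Ebp and Sc5d held, and Acat2 and Hsd17b7 kept theirs after repeated atrophy, also with the block. The late reductase Dhcr7 did not pass after repeated atrophy (log2 FC 0.78, adjusted p = 0.0546). Lbr, a sterol reductase that also anchors the nuclear lamina, fell after recovery (log2 FC -0.96, adjusted p = 0.0316) together with Fdft1.

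**Figure D4:**
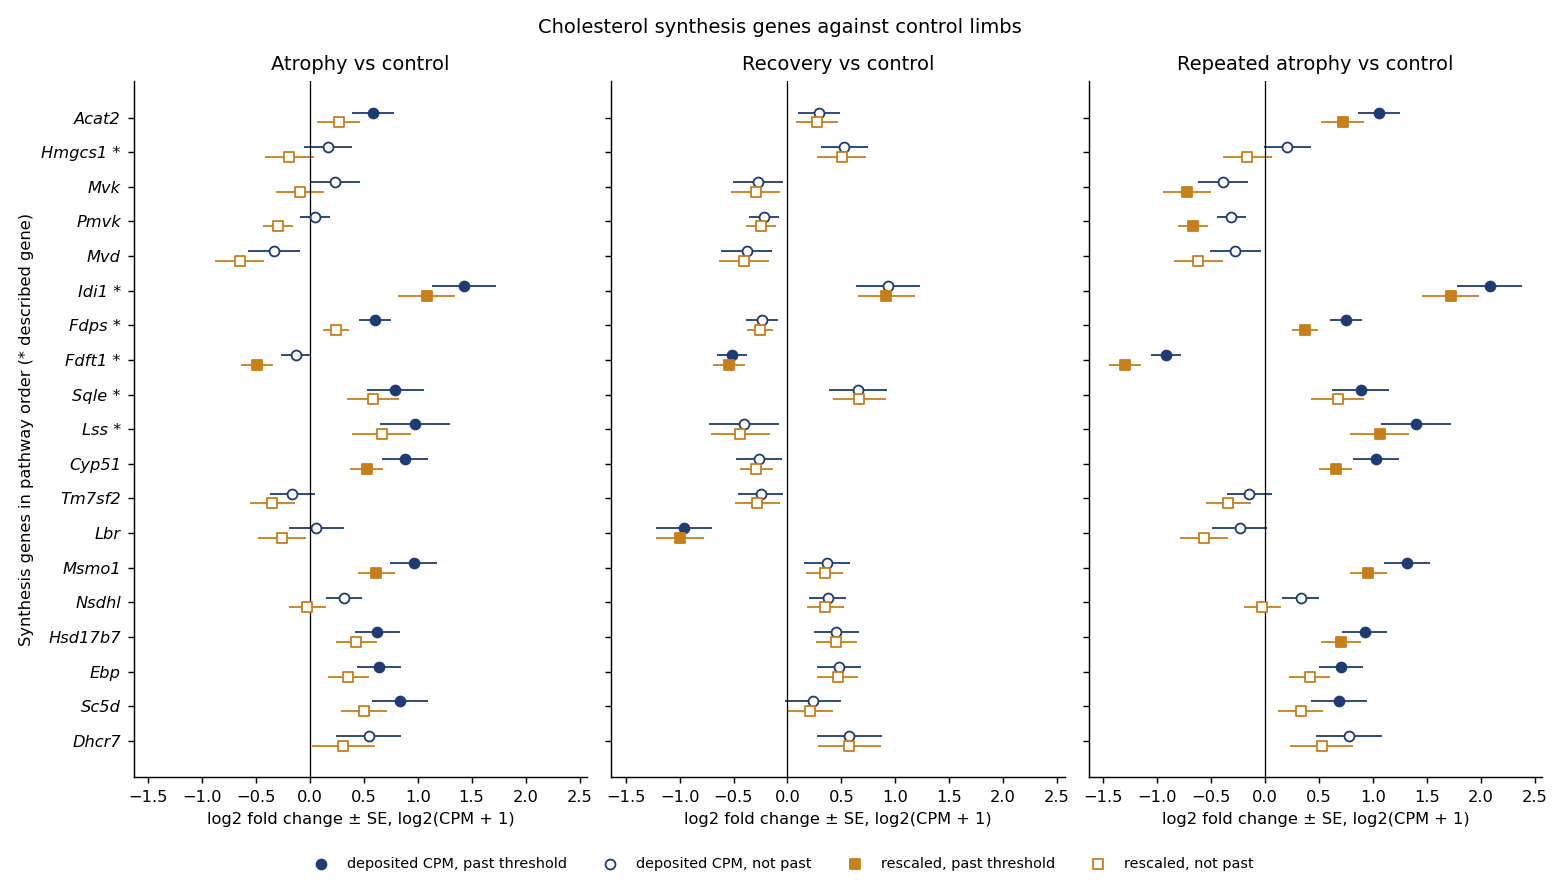
log2 FC ± SE vs. control (horizontal axes) of 19 of the 21 synthesis genes in pathway order from top to bottom after atrophy, recovery and repeated atrophy, from deposited CPM (circles) and rescaled values (squares), filled where past the threshold. After repeated atrophy Idi1 lies farthest to the right at 2.08 and Fdft1 is the only filled circle left of 0, at -0.92.

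Among 9 regulators, which include Srebf2 and Insig1, 1 rose after atrophy, where 20.3% of all rows rose, 2 fell after recovery, where 3.33% fell, and 2 rose and 1 fell after repeated atrophy, where 28.1% rose and 6.24% fell. Rescaled, 0 were called after atrophy, 2 fell after recovery and 1 fell after repeated atrophy (6.04% and 12.1% of all rows fell in these). Scap, the escort of SREBP out of the endoplasmic reticulum, had a log2 FC of 0.61 after atrophy (adjusted p = 0.11) and rose by 0.91 after repeated atrophy (adjusted p = 0.0141). Srebf1, which encodes the SREBP-1 factors linked mainly to fatty acid synthesis, fell after repeated atrophy (log2 FC -2.09, SE 0.48, adjusted p = 0.00292), from a control range of 51.6 to 290 CPM to 23.1 to 33.3 CPM with no overlap. Srebf2 and Srebf1 thus lay on opposite sides of control after repeated atrophy on the deposited scale, and the fall of Srebf1 held after rescaling (log2 FC -2.46, adjusted p = 0.00192) and with the block (log2 FC -2.36, adjusted p = 0.00784), whereas the rise of Scap was not called after rescaling (log2 FC 0.53, adjusted p = 0.0874). Mbtps2, a protease that frees SREBP, rose after atrophy (log2 FC 0.59, adjusted p = 0.0453) and was not called after rescaling (adjusted p = 0.193). The oxysterol receptors Nr1h3 and Nr1h2 fell after recovery (log2 FC -1.15 and -0.79, adjusted p = 0.00361 and 0.0459), calls that held after rescaling and not with the block (adjusted p = 0.148 and 0.228).

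The uptake list held 11 genes, of which 10 were tested. After atrophy 1 rose and 0 fell, after recovery 0 changed, and after repeated atrophy 1 rose and 1 fell, with list medians of 0.17, 0.04 and -0.09 against 0.22, 0.02 and 0.20 over all rows. Among all rows 20.3% rose and 2.33% fell after atrophy, and 28.1% rose and 6.24% fell after repeated atrophy. Rescaled, 0 of the 10 were called after atrophy or recovery, and 0 rose and 3 fell after repeated atrophy (13.1% and 12.1% of all rows). Npc1, which carries cholesterol out of lysosomes, rose after atrophy (log2 FC 0.88, adjusted p = 0.0182) and repeated atrophy (log2 FC 0.65, adjusted p = 0.0469), and neither call held after rescaling (adjusted p = 0.108 and 0.353), while with the block the second held (adjusted p = 0.00915) and the first did not (adjusted p = 0.204). Vldlr, a receptor of triglyceride-rich lipoproteins, fell after repeated atrophy (log2 FC -0.54, adjusted p = 0.0199) and was not called with the block (adjusted p = 0.252).

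Of 7 efflux and storage genes, 1 rose after atrophy (20.3% of all rows) and 3 rose after repeated atrophy (28.1%). Cyp27a1, the sterol 27-hydroxylase, rose by 0.81 (adjusted p = 0.0182) and 1.22 (adjusted p = 0.000645), and the exporter Abcg1 (log2 FC 0.98, adjusted p = 0.0353) and the ester hydrolase Nceh1 (log2 FC 0.86, adjusted p = 0.0335) rose after repeated atrophy. In mean log2(CPM + 1), Abcg1 was 2.13 in control, 2.88 in atrophy, 3.2 in recovery (SD 0.86) and 3.11 in repeated atrophy limbs. Nceh1 was 2.26, 2.94, 2.27 and 3.12 in the same order. Rescaled, only the repeated atrophy call of Cyp27a1 held (adjusted p = 0.00321), as it did with the block (adjusted p = 0.00436). Of 7 genes that use isoprenoids, 2 rose and 1 fell after atrophy (20.3% and 2.33% of all rows), 1 rose after recovery (4.4%) and 3 rose after repeated atrophy (28.1%). Dhdds, a subunit of dolichol synthase, rose by 1.07 (adjusted p = 0.00718) and 1.53 (adjusted p = 0.000139), and Fntb, the beta subunit of farnesyltransferase, by 0.71 (adjusted p = 0.00926) and 0.90 (adjusted p = 0.000626). Dhdds kept both calls after rescaling (adjusted p = 0.0236 and 0.000237) and Fntb the second (adjusted p = 0.106 and 0.00997), and with the block both genes lost the atrophy call (adjusted p = 0.181 and 0.163) and kept the other (adjusted p = 0.00484 and 0.0132). Of 5 fatty acid synthesis genes, only Scd, the stearoyl-CoA desaturase, was called, and it rose in all 3 comparisons with control (log2 FC 2.40, 4.73 and 4.11), where 20.3%, 4.4% and 28.1% of all rows rose, the first of which was lost after rescaling (adjusted p = 0.115) and with the block (adjusted p = 0.151).

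Marker lists of other cells were summed beside these results. The 4 fibroblast markers summed to 954 to 1800 CPM in recovery limbs against 181 to 496 CPM in control limbs, with 3 of 4 past the threshold, and the 6 macrophage markers to 91.6 to 195 CPM against 34.1 to 127 CPM, with 3 of 6 past it, where 7.73% of all rows were called. After atrophy and repeated atrophy 0 of 4 fibroblast, 0 of 6 macrophage and 0 of 6 adipocyte markers were past the threshold, while the 3 myogenic markers summed to 243 to 931 CPM and 603 to 779 CPM against 61.6 to 183 CPM in control limbs, with Myog and Myod1 past it and Pax7 not. Of all rows 22.6% and 34.3% were called in these comparisons, and 2.33% and 6.24% fell. Of 6 Schwann cell markers, 1 (Prx) fell after atrophy, and of 4 endothelial markers, 1 (Tie1) fell after repeated atrophy. With the block the 6 recovery calls of fibroblast and macrophage markers, the atrophy calls of Myog, Myod1 and Prx, and the call of Tie1 were lost, and the repeated atrophy calls of Myog and Myod1 were kept (adjusted p = 0.0061 and 0.0135). Among these markers Cidec, Lep, Plin1, Retn and Pax7 were at 0 in 1 to 6 of 24 limbs and no other marker was at 0 in any. The part of these cells in the levels of the 8 genes was not tested.

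The 8 genes did not move as a block. Over 18 limbs of TTX animals, the Pearson r of each gene with the mean of the other 7 was highest for Fdps (0.83), Lss (0.794) and Idi1 (0.721), and negative for Fdft1 (-0.52) and Hmgcs1 (-0.122). These limbs share group and scale, and after rescaling r was 0.503 for Fdps, 0.352 for Lss, 0.329 for Idi1, -0.771 for Fdft1 and -0.669 for Hmgcs1. The rows with a mean of at least 1 CPM whose course was most like the average of the 8 genes over 18 limbs were Dync1li1 (r = 0.966), Zfp18 (0.965), Eif3c (0.963), Poldip3 (0.963), Psmd5 (0.962), Ctr9 (0.957), Tcp11l1 (0.957), Map4k4 (0.956), Copb2 (0.956) and Vcp (0.955). Only 1 of these 10, Vcp with r = 0.901, was among the 10 most alike after rescaling, and 3 were when the 6 sham limbs were added.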

How the data were processed

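RNA-seq was performed on 24 TA muscles of 12 rats. Per the study's methods, directional polyA libraries were sequenced as 59 bp paired-end reads and processed in Partek Flow, with bowtie2 2.2.5, STAR and the rn7 build named in the methods and the submitters' processing notes. The gene annotation and counting settings are not given in the sources used here. The authors deposited normalized values per gene, as CPM by their sum of about 998900 in each limb, although the methods name DESeq2 median of ratios, and they were not treated as counts. Only 86.4% to 88.3% of low values were whole multiples of a read (tolerance 0.02), so reads were not recovered. Intervals for counting error are not given, and depth was read from the most frequent value above 0 in each limb.

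Of 14271 rows, 28 repeats were dropped, and the row with the highest mean stood for a symbol with several rows. The deposited gene length was used for CPM per kb. In the file 27 columns held values per library, and 3 that are not mapped to a sample here were not used. Groups came from the labels.

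Values were tested as log2(CPM + 1) with limma 3.58.1 in R 4.3.3, with an intensity trend, in 1 fit of the 18 limbs of TTX animals, and adjusted by Benjamini-Hochberg over all rows tested. Sham left was fitted with control (12 limbs), and with sham right with the animal as block (6 limbs). The fit of 18 limbs took limbs as independent and ignored the pairing, so its p-values measure the spread between limbs within groups. With the animal as block they measure the spread of left minus right differences between animals. The fit was also run on simulated data with independent limbs, no pairing by animal and no shift of whole limbs. That run therefore cannot speak to the pairing or the scaling of these data.

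Limbs pair by animal, as the labels give it. Deviations from group means correlated by 0.118 on average between limbs of TTX animals, with 3 of 9 negative, and by 0.745 in sham animals. Alternatives were a pseudocount of 0.1 or 10, 2 rescalings, a mean of at least 10 CPM or no filter, 12 right limbs as control, the animal as block, no intensity trend and leaving out each animal. The 8 genes and all lists were chosen with earlier results of these data known. Named genes were the 8, list genes past the threshold in at least 1 comparison, list genes needed for a pathway step, and the 10 genes most alike in course. Some list genes are counted within their lists and not reported here by name.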

Additional observations from a re-analysis of the deposited data

Results flagged for a closer look

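Within the 9 control limbs, the level of each of the 8 genes was searched for a limb far from the others, by Dixon's test at the 95% level (critical value 0.493). Chance marks about 1 in 20 such groups, and 8 were searched. Insig1 was marked, at 63.6 CPM in the right limb of atrophy animal 3, where the other 8 control limbs ran up to 31.2 CPM. The left limb of that animal stood at 40.5 CPM. Idi1 stood at 15.1 CPM in the marked limb, the second highest of the control limbs. Insig1 did not pass the threshold in any comparison with any animal left out.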

How the results depend on the processing

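Of the calls among the 8 genes, those of Idi1, Lss, Fdps and Fdft1 after repeated atrophy held under every alternative that tested them (Lss is below a mean of 10 CPM). No fold change of the 8 genes changed sign in a comparison where the gene was called, though some did elsewhere, such as Srebf2 after atrophy (0.32, and -0.04 rescaled). The number of called genes was 4 with atrophy, 1 with recovery and 6 with repeated atrophy. After atrophy it was 2 under either rescaling, 2 with a mean of at least 10 CPM, where Sqle and Lss are not tested, and 0 with the animal as replicate block. After recovery it was 2 under either rescaling, 2 with a mean of at least 10 CPM, 2 with the animal as a random effect and 0 with the fixed block. From atrophy to recovery it was 2, 1 with a mean of at least 10 CPM and 0 with the block, and from recovery to repeated atrophy it was 4, 3 after rescaling by median of ratios, 3 with a mean of at least 10 CPM and 0 with the block. Apart from filtered genes, the cause was not tested. The random block could not be fitted for sham left vs. control, where each animal gives 1 limb. The fixed block also lost Sqle after repeated atrophy, and changed no other call among the 8 genes. Sqle lost both calls with a pseudocount of 10, where its FC is under 1.2, and its atrophy call with 12 right limbs (adjusted p = 0.0514). Over all rows, 3171 calls after atrophy became 1358 rescaled, 0 with the block and 1 to 4841 with an animal left out. After recovery 1084 became 1692, 9 and 184 to 1478, and after repeated atrophy 4812 became 3542, 3806 and 2573 to 5254. From atrophy to recovery 2505 became 1498, 2 and 398 to 3704, and from recovery to repeated atrophy 3823 became 3044, 12 and 1844 to 4253. Between the disuse periods 5 became 0, 0 and 0 to 36. Of 6705 rows with a mean of at least 10 CPM, 2885 were called after atrophy and 815 after recovery. From atrophy to recovery 2573 of these rows were called, and from recovery to repeated atrophy 3221 were. With the animal as a random effect, 1174 of 14031 rows were called after recovery. Rescaling by median of ratios gave 3033 of 14031 from recovery to repeated atrophy.

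Leaving out each animal in turn gave 0 to 4 called genes after atrophy, 0 to 2 after recovery, 4 to 6 after repeated atrophy, 0 to 2 from atrophy to recovery, 2 to 4 from recovery to repeated atrophy, and 0 to 0 in the other comparisons. For the 21 synthesis genes, in alternatives chosen after seeing the data, the number called after atrophy was 11, 4 after rescaling, 0 with the replicate block and 0 to 12 when animals were left out. After recovery it was 2, 0 with the block and 0 to 3, and after repeated atrophy 12 and 9 to 13. Of the 10 genes with the most alike course, 1 was kept after rescaling and 3 with the sham limbs.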
